A study of Mus musculus with 2 samples.

Results

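The megakaryocyte and platelet genes followed here were 9 genes, chosen by symbol as platelet glycoproteins and platelet granule proteins: Pf4, Ppbp, Vwf, Gp1ba, Gp1bb, Gp5, Gp6, Gp9 and Treml1. All 9 were found among the 23284 genes listed for each library. RNA-seq was done on mouse fetal liver (FL) cells at E14.5 (embryonic day), in 1 WT library and 1 ESAM-null library. The cells were LSK CD48- cells, that is lineage marker negative, Sca-1+, c-Kit+ and CD48-, a fraction rich in hematopoietic stem cells (HSCs). ESAM is an adhesion molecule of endothelial cells, platelets and HSCs, and the ESAM-null fetuses carried the deletion in all tissues, so that the vessels and liver around the HSCs carried it too. Each library was labelled as sorted cells, although the treatment note of the labels also mentions incubation in a methylcellulose medium. The values are taken here as those of sorted cells. The sources used here do not give the number of fetuses or cells behind each library. With 1 library for each genotype there was no replicate check and no test between genotypes. Intervals below are exact 95% counting intervals and cover counting error only. They do not cover differences between fetuses, sorts or cDNA amplifications.

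Megakaryocytes are large marrow and FL cells that shed platelets, and HSCs biased toward the platelet lineage already express some of their genes. On a platelet, the GPIb-IX-V complex (Gp1ba, Gp1bb, Gp9 and Gp5) binds von Willebrand factor (Vwf) on the injured vessel wall, and GPVI (Gp6) then binds collagen. The alpha granules store von Willebrand factor and the chemokines platelet factor 4 (Pf4, also called Cxcl4) and pro-platelet basic protein (Ppbp, also called Cxcl7), and they carry TREM-like transcript 1 (Treml1) to the surface on activation. GATA1 and FLI1, a GATA factor and an ETS factor, are known to bind promoters of many of these genes.

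Gp5 was lower and Ppbp higher in ESAM-null by at least 2-fold, so the 250 bases before the RefSeq start are shown for both, beside those of Gp9 and Gp1ba of the same receptor complex and of Pf4, the chemokine gene next to Ppbp (GRCm38.p6, which has the coordinates of mm10), each 5′ to 3′ on the strand of the gene. Capitals mark the GATA words AGATAA or TGATAA or AGATAG or TGATAG and the ETS words AGGAAG or CGGAAG, searched on both strands, so a word on the other strand appears as its reverse complement. Gp9 lies at chr6:87777820-87778069 (plus strand), Gp5 at chr16:30310782-30311031 (minus strand), Gp1ba at chr11:70638872-70639121 (plus strand), Ppbp at chr5:90768268-90768517 (plus strand) and Pf4 at chr5:90772185-90772434 (plus strand).
Gp9: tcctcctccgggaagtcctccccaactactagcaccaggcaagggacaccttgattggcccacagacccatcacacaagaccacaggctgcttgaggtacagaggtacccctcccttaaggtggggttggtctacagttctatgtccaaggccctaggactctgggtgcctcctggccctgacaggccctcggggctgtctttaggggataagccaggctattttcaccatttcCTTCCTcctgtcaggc
Gp5: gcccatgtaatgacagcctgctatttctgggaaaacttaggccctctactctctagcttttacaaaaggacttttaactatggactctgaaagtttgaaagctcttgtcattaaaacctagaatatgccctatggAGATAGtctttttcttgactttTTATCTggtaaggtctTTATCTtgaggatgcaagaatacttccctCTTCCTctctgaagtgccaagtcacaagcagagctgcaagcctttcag
Gp1ba: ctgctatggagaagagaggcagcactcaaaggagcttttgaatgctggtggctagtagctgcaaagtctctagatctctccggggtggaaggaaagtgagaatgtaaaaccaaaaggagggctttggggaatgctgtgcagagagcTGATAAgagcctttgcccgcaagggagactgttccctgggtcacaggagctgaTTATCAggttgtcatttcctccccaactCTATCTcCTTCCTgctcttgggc
Ppbp: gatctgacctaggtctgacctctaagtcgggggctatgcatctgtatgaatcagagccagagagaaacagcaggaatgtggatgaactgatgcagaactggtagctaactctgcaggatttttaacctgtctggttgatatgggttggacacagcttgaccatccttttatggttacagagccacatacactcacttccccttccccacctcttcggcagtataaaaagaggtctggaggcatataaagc
Pf4: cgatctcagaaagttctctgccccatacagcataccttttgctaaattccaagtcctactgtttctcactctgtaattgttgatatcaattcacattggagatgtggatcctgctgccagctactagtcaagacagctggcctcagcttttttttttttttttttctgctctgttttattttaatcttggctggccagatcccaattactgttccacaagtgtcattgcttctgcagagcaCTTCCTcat

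A GATA word stood in 4 of the 8 matched member promoters, against 26.5% of 32851 mouse promoters of the same length. Gp5 and Gp1ba held 3 GATA words each, whereas Gp1bb and Gp6 held 1 each. An ETS word stood in 5 of the 8, those of Gp9, Gp5, Gp1ba, Gp1bb and Pf4, against 39.2% of all promoters. In Gp9 and Gp1ba the ETS word began 16 bases before the start. Ppbp and Treml1 held neither kind of word in this window. Vwf had no entry. These are matches of letters, not measured binding.

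As a check of the labels, Esam was at 117.6 FPKM in WT but 12.14 FPKM in ESAM-null, a 9.69-fold lower level (8.39 to 11.2). FPKM are fragments per kilobase of transcript and per 1000000 mapped reads, so levels of different genes can be compared per length. The files hold no counts, but low values rose in steps of 1 read, which put the depth at about 9582000 reads on genes in WT and 11708533 in ESAM-null. All 8 stem cell markers (such as Procr, Cd34 and Mecom) were above 0 in both libraries and differed by less than 2-fold between them. Their summed level was 667.1 FPKM in WT against 663.4 FPKM in ESAM-null. Over all genes that reached 1 FPKM, 12.8% were at least 2-fold lower and 7.42% higher. At a mean of 30 to 100 FPKM, where several of the markers lay, the shares were 0.723% and 1.45%. Beside these shares the count makes no result about the markers.

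The 9 genes spanned the range from a well expressed surface protein to no reads at all. In WT the order was Gp9, Pf4, Vwf, Gp5, Treml1, Ppbp, Gp1ba, Gp1bb and Gp6. The neighbours from Gp5 to Gp1ba in this order could not be told apart by counting error, since the ratio of Gp5 to Treml1 was 1.15 (0.684 to 1.999), that of Treml1 to Ppbp 1.72 (0.813 to 3.83) and that of Ppbp to Gp1ba 1.196 (0.557 to 2.42). In ESAM-null the first 3 places were the same, followed by Ppbp, Gp1ba, Treml1 and Gp5, with Gp1bb and Gp6 at 0. There, Gp1ba and Treml1 were the only pair of neighbours above 0 that counting error did not separate (ratio 1.10, 0.623 to 2.04). The summed level of the 9 genes was 90.87 FPKM in WT against 103.6 FPKM in ESAM-null. Gp9 made up 63.6% and 63.7% of it. Without Gp9 the sums were 33.04 and 37.62 FPKM.

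**Figure D1:**
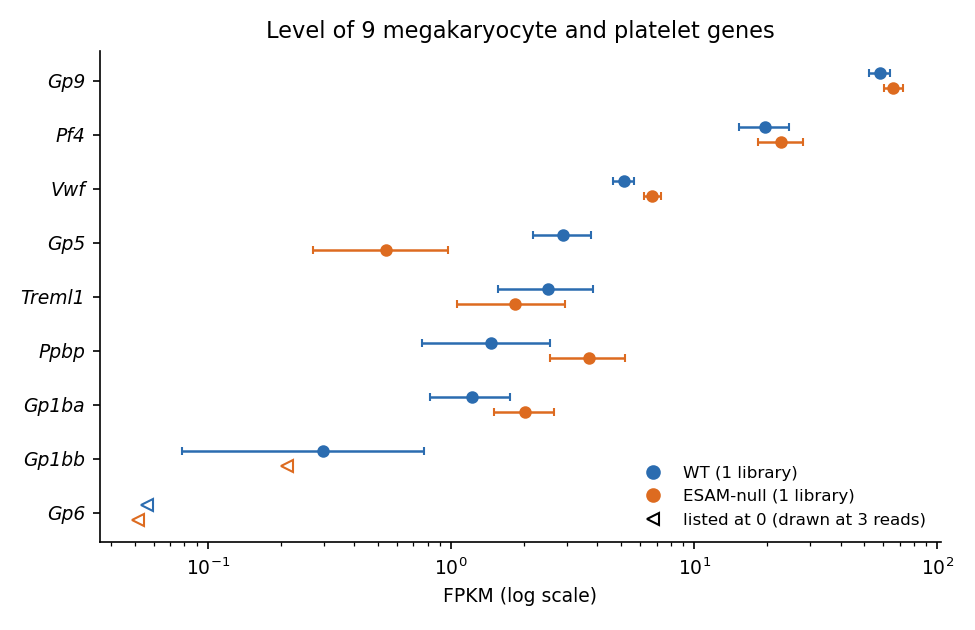
Level of each of the 9 genes in FPKM in the WT and ESAM-null libraries, with exact 95% counting intervals as bars. Gp9 stands highest in both libraries (57.83 and 65.94 FPKM), Gp5 is the gene whose ESAM-null point lies farthest below its WT point (2.889 and 0.541 FPKM), and Gp6 is at 0 in both.

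Of the 9 genes, 7 reached 1 FPKM in at least 1 library, and 2 (Gp1bb and Gp6) did not. Gp5 was the 1 gene at least 2-fold lower in ESAM-null, 14.3% of the 7, where 12.8% of the 12066 genes that reached 1 FPKM were lower to this extent. Ppbp was the 1 gene at least 2-fold higher, again 14.3% of the 7, against 7.42% of all genes. The other 5 (Gp9, Pf4, Vwf, Gp1ba and Treml1) lay within 2-fold. A count of 1 among 7 genes in each direction makes no result about the group beside these shares. Of the 7 ratios of ESAM-null to WT, 5 were above 1 and 2 below, where 50.6% were above 1 over all genes. The median log2 ratio over the 7 was 0.225, beside 0.011 over all genes. This median is −0.053 when both libraries are rescaled to the same FPKM total, which moves every log2 ratio by −0.278, so the sign of the group's shift depends on the scaling. The counting interval left out a ratio of 1 for 4 of the 7 (Gp5, Ppbp, Vwf and Gp1ba) and included it for 3 (Gp9, Pf4 and Treml1). Among all genes with an interval, 73.3% left out 1. After the same rescaling, an alternative chosen after seeing the data, the intervals of Vwf and Gp1ba include 1 and those of 2 genes, Gp5 and Ppbp, leave it out, as do those of 75.2% of all genes. Because both libraries hold a mixture of cells, fewer cells with a given RNA and less of that RNA per cell cannot be told apart.

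**Figure D2:**
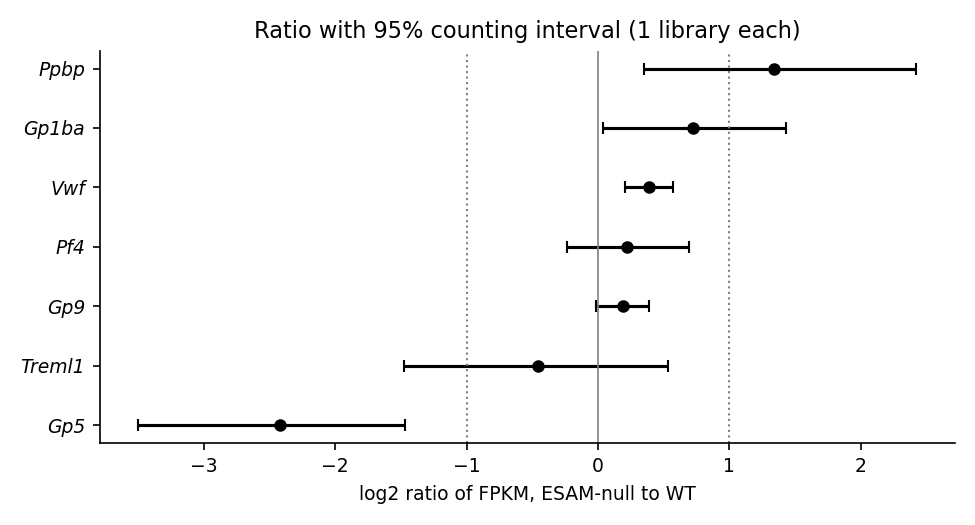
Log2 ratio of FPKM, ESAM-null to WT, for the 7 genes that reached 1 FPKM in a library, with exact 95% counting intervals as bars and dotted lines at 2-fold. The interval of Gp5 lies wholly below the lower 2-fold line, the interval of Ppbp lies above 0 and crosses the upper one, and those of Gp9, Pf4 and Treml1 include 0.

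Of the 4 genes of the GPIb-IX-V complex, Gp5 was lower relative to Gp9 and Gp1ba in ESAM-null, while Gp1bb was too low to place. Gp9, which encodes the small GPIX subunit, lies at chr6:87778072-87779768 on the plus strand with 2 exons. Its level was 57.83 FPKM in WT (52.09 to 64.04, about 370 reads) and 65.94 FPKM in ESAM-null (60.04 to 72.25, about 459 reads), a ratio of 1.14 (0.992 to 1.31). At this level it stood above 85.3% of the genes detected in WT and 84.3% of those detected in ESAM-null. Gp9 was thus a well expressed gene of both LSK CD48- libraries. Only 1.45% of genes with a mean of 30 to 100 FPKM were at least 2-fold higher and 0.723% at least 2-fold lower. The genes nearest to Gp9 in both libraries, by distance of log2(FPKM + 0.1) over 2 libraries, were Nt5c3 (57.56 and 65.96 FPKM), 2810422J05Rik (57.62 and 66.41 FPKM) and Cdk1 (57.15 and 66.42 FPKM).

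Gp5 encodes the GPV subunit, which thrombin cleaves, and lies at chr16:30307685-30310779 on the minus strand with 2 exons. Its level was 2.889 FPKM in WT (2.172 to 3.767, about 54 reads) and 0.541 FPKM in ESAM-null (0.271 to 0.967, about 11 reads). The intervals of the libraries did not overlap. Gp5 was 5.34-fold lower in ESAM-null (2.77 to 11.3). It passed the 1 FPKM filter through its WT level alone. Among genes with a mean of 1 to 3 FPKM, 30.0% were at least 2-fold lower and 19.7% at least 2-fold higher, so differences of 2-fold were common at this level. Gp5 moved from above 31.1% of detected genes in WT to above 10% in ESAM-null. Atp13a3, the gene that follows Gp5 at 1644 bases, was at 4.793 FPKM in WT against 3.835 FPKM in ESAM-null. Lrrc15 on the other side was at 0 in both.

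Gp1ba encodes GPIb alpha, the subunit that holds the binding site for von Willebrand factor, and lies at chr11:70639122-70642036 on the plus strand with 2 exons. Its level was 1.219 FPKM in WT (0.815 to 1.754, about 29 reads) and 2.010 FPKM in ESAM-null (1.499 to 2.638, about 52 reads). It was 1.65-fold higher in ESAM-null (1.03 to 2.70), within 2-fold, and the level intervals of the libraries overlapped. Its neighbour Slc25a11, a mitochondrial carrier 2160 bases away on the other strand, was at 101.2 and 106.5 FPKM, and Chrne was at 0 in both.

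Gp1bb encodes GPIb beta, the subunit joined to GPIb alpha by disulfide bonds, and lies at chr16:18620317-18622403 on the minus strand. It was at 0.296 FPKM in WT (about 4 reads) and at 0 in ESAM-null, where 3 reads would have given 0.212 FPKM. No fold is given, since so few reads do not show whether the libraries differ. Its exons share 593 of 2087 bases (28.4%) with Sept5 on the same strand, and reads there cannot be assigned to either gene with certainty. Sept5 was at 0.0783 FPKM in WT and 0 in ESAM-null. Tbx1, the nearest listed gene at lower coordinates, was at 0.540 and 0 FPKM, and Cldn5, at higher coordinates, was at 2.106 and 1.775 FPKM.

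Ratios of subunits within a library do not depend on how the libraries were scaled to each other. Relative to Gp9, Gp5 was at 0.04995 in WT and 0.00821 in ESAM-null, a fall of 6.09-fold (3.09 to 13.1). Gp5 was at 2.37 times the level of Gp1ba in WT and at 0.269 times in ESAM-null, a fall of 8.80-fold (3.77 to 21.4). Both counting intervals left out 1. The level of Gp9 relative to Gp1ba was 47.44 in WT and 32.81 in ESAM-null, and the 1.45-fold fall was within counting error (0.880 to 2.41). The summed level of the complex was 62.24 FPKM in WT against 68.49 FPKM in ESAM-null, because Gp9 dominates it. Among the 3 subunits measured above 0 in both libraries, Gp5 was the one lower relative to both others in ESAM-null, beyond counting error. These ratios use the same Gp5 reads as the 5.34-fold difference above, so they are no separate support for it. Gp1bb, at about 4 and 0 reads, cannot be placed. The log2 ratio of Gp9 itself is −0.089 after rescaling to equal totals, so no direction is given for it.

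Pf4 and Ppbp encode chemokines of the alpha granule and lie next to each other on chromosome 5 within a chemokine cluster, 2372 bases apart and on the same strand. Pf4 (chr5:90772435-90773383, 3 exons) was at 19.53 FPKM in WT (15.26 to 24.63, about 71 reads) and 22.83 FPKM in ESAM-null (18.37 to 28.04, about 91 reads). The ratio was 1.17 (0.847 to 1.62), and the level intervals overlapped. Among genes with a mean of 10 to 30 FPKM, 2.84% were at least 2-fold higher and 5.30% at least 2-fold lower. Pf4 was the second highest of the 9 genes in each library.

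Ppbp (chr5:90768518-90770063, 3 exons) was at 1.459 FPKM in WT (0.756 to 2.542, about 12 reads) and 3.688 FPKM in ESAM-null (2.543 to 5.171, about 33 reads). It was 2.53-fold higher in ESAM-null (1.28 to 5.36), and the interval of the ratio reaches below 2-fold. The level intervals of the libraries lay end to end without overlap. Relative to Pf4 in the same library, Ppbp was at 0.0747 in WT and 0.162 in ESAM-null, and this 2.16-fold difference was within counting error (0.990 to 4.89). The data therefore do not separate the ratio of Ppbp from that of its neighbour. The other chemokine genes beside the pair were at or near 0, with Cxcl3 at 0.132 and 0.121 FPKM and Cxcl5 at 0 in both.

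Vwf encodes von Willebrand factor, a large adhesive protein that both megakaryocytes and endothelial cells make. It lies at chr6:125546774-125686679 on the plus strand, with 52 exons and a RefSeq transcript of 8834 bases, so that modest FPKM rest on many reads. Its level was 5.133 FPKM in WT (4.652 to 5.651, about 417 reads) and 6.722 FPKM in ESAM-null (6.193 to 7.286, about 594 reads). Vwf was 1.31-fold higher in ESAM-null (1.15 to 1.49), and the intervals of the libraries did not overlap. Among genes with a mean of 3 to 10 FPKM, 16.5% were at least 2-fold lower and 7.66% at least 2-fold higher. Relative to Gp1ba, Vwf was at 4.211 in WT and 3.345 in ESAM-null, a difference within counting error. After rescaling to equal totals its log2 ratio of 0.389 would shift by the −0.278 given above, and its interval then includes 1.

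Endothelial markers were read beside Vwf because endothelial cells also make it, and HSCs share part of these markers. The 12 markers summed to 989.0 FPKM in WT against 1023 FPKM in ESAM-null, with 0 and 1 of them at 0. Most of the sum was Egfl7 (825.6 and 852.1 FPKM), which HSCs also express. Of 10 markers that reached 1 FPKM, 1 was at least 2-fold higher and none lower, beside 7.42% higher and 12.8% lower over all genes. The higher marker was Cdh5 (VE-cadherin), at 0.954 FPKM in WT against 3.327 FPKM in ESAM-null. The sinusoidal markers Lyve1 (0.884 and 0 FPKM) and Stab2 (0.040 and 0.492 FPKM, about 3 and 40 reads) stayed under 1 FPKM and lay in opposite directions. The better measured markers also lay in both directions, all within 2-fold. Tek (10.87 and 16.26 FPKM), Emcn (43.20 and 59.96 FPKM) and Robo4 (18.36 and 22.25 FPKM) were higher in ESAM-null. Pecam1 (20.84 and 12.10 FPKM), Tie1 (51.68 and 40.05 FPKM) and Kdr (1.334 and 0.781 FPKM) were lower. In all, 6 of the 10 markers that reached 1 FPKM had a ratio above 1, beside 50.6% over all genes. The part of endothelial cells in the Vwf value was not tested. Of the genes around Vwf, Cd9, a tetraspanin of platelets and HSCs, was at 67.54 and 78.63 FPKM, and Ano2 was at 0.

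Treml1 encodes a receptor of the alpha granule membrane and lies at chr17:48359916-48367176 on the plus strand with 6 exons. Its level was 2.514 FPKM in WT (1.560 to 3.835, about 21 reads) and 1.829 FPKM in ESAM-null (1.061 to 2.938, about 17 reads). The ratio of 0.73 had an interval of 0.360 to 1.45, and the libraries could not be told apart at this depth. Its neighbour Trem2 was at 0 in both, and Nfya was at 6.657 and 6.544 FPKM.

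Gp6 encodes the collagen receptor GPVI and lies at chr7:4363965-4397744 on the minus strand with 8 exons. No read was seen in either library, which allows a level of up to 0.056 FPKM in WT against 0.0514 FPKM in ESAM-null, the value of 3 reads. The Fc receptor gamma chain (Fcer1g), with which GPVI signals but which is also made in many blood cells, was at 73.73 and 84.68 FPKM. Gp6 was therefore not detectable at this depth, and neither were its neighbour Ncr1 and the platelet ADP receptor gene P2ry12. Rdh13, the neighbour of Gp6 on the other side, was at 2.317 and 3.333 FPKM.

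The ratios of all genes moved with expression level. The median log2 ratio was −0.270 for genes with a mean of 1 to 3 FPKM, −0.199 at 3 to 10 FPKM, −0.070 at 10 to 30 FPKM, 0.097 at 30 to 100 FPKM and 0.357 at 100 FPKM or more. Beside these, Gp9 (0.189) and Pf4 (0.225) lay above the median of their range. Ppbp (1.338) and Gp1ba (0.721) lay above the median of the 1 to 3 FPKM range and Gp5 (−2.417) and Treml1 (−0.458) below it. Vwf (0.389) lay above the median of the 3 to 10 FPKM range.

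**Figure D3:**
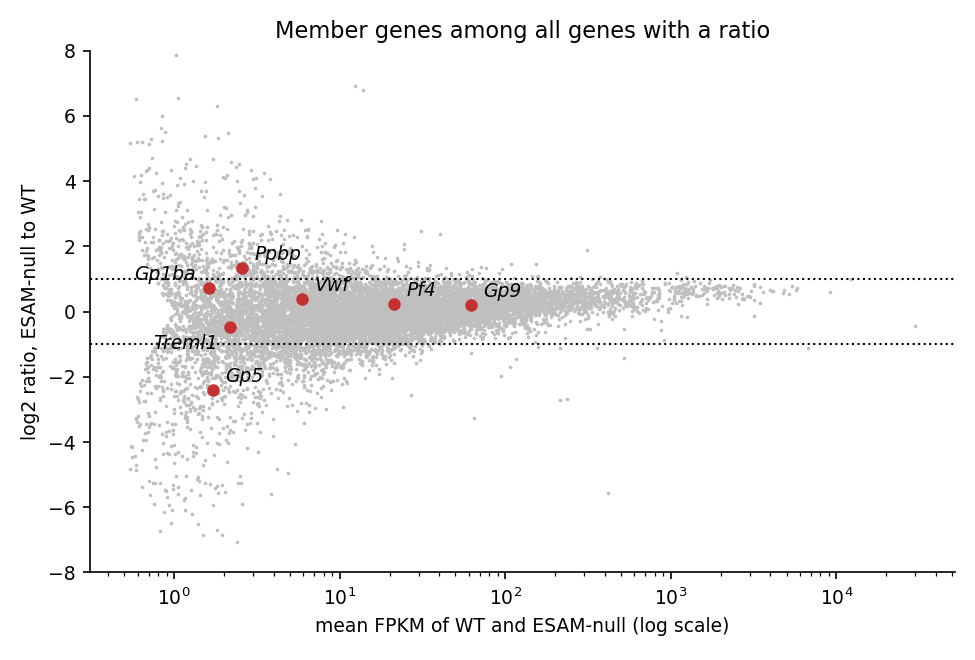
Log2 ratio of FPKM, ESAM-null to WT, against mean FPKM on a log axis, for all genes that reached 1 FPKM in a library (grey) and the 7 measured platelet genes (red), with dotted lines at 2-fold. The grey cloud is widest at low FPKM, where Gp5 and Ppbp lie beyond the lines, and Gp9 lies inside the narrow part; 3 genes beyond 8 on the log2 scale are off the axis.

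Other genes of the lineage were read from 6 lists sorted by role. All 17 transcription factors of megakaryocytes reached 1 FPKM, and none was at least 2-fold different, with log2 ratios from −0.672 to 0.673 and a median of −0.152. Over all genes 12.8% were lower and 7.42% higher. Most of the factors had a mean above 10 FPKM, where such differences were rarer. The shares were 5.30% lower and 2.84% higher at 10 to 30 FPKM, and 0.723% and 1.45% at 30 to 100 FPKM. Beside these shares the count makes no result about the factors. The highest was Nfe2, required for platelet release, at 275.0 FPKM in WT against 286.3 FPKM in ESAM-null. Gata1 was at 4.640 and 6.947 FPKM, and Fli1 was at 63.09 and 50.59 FPKM. Ldb1, which bridges GATA and other factors, was at 88.87 and 56.57 FPKM. RNA of Gata1 and Fli1, the factors named for the promoter words above, differed by less than 2-fold. The part of these factors in the values of the 9 genes was not tested.

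Among the surface receptors of platelets, 13 of 18 reached 1 FPKM, of which 2 were at least 2-fold lower, 2 higher and 9 neither (median log2 ratio −0.059). The lower ones were Itga2b (integrin alpha IIb, CD41, the fibrinogen receptor), at 5.054 and 2.233 FPKM (2.26-fold, 1.70 to 3.03), and Pear1, a receptor of platelet contacts, at 36.31 and 16.70 FPKM (2.17-fold, 1.98 to 2.38). The higher ones were P2ry1, an ADP receptor, at 2.132 and 10.62 FPKM (4.98-fold, 3.86 to 6.51), and Clec1b, the podoplanin receptor CLEC-2, at 0.490 and 2.634 FPKM. The Clec1b value rests on about 2 and 11 reads, and its interval runs from 1.15-fold to 53.9-fold. The 2 and 2 of 13 stand beside shares of 12.8% lower and 7.42% higher over all genes. Clec1b passed the 1 FPKM filter through ESAM-null alone. With at least 1 FPKM in both libraries, 2 of 12 were lower and 1 higher. With no filter 4 of 16 were lower, where 3264 of 14703 genes were lower over all genes, and the median was −0.399. The added ones were Itgb3, the partner of Itga2b, at 0.495 and 0.140 FPKM and Itga2, a collagen receptor subunit, at 0.396 and 0.146 FPKM. Cd63, the highest of the list, was at 301.8 and 474.1 FPKM.

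Of the alpha granule genes besides the members, 12 of 15 reached 1 FPKM, with 2 lower, 2 higher and 8 neither (median log2 ratio −0.159). Pdgfb, a growth factor, was at 14.46 and 4.455 FPKM (3.25-fold lower, 2.64 to 4.01), and F5, coagulation factor V, at 1.885 and 0.772 FPKM (2.44-fold lower, 1.78 to 3.40). Sparc, a matrix protein, was at 2.484 and 13.05 FPKM (5.25-fold higher, 3.84 to 7.33), and Serpine2, a thrombin inhibitor, at 2.353 and 9.548 FPKM (4.06-fold higher, 2.92 to 5.76). The granule proteoglycan Srgn, which binds Pf4, was at 621.7 and 626.3 FPKM, and Tgfb1 was at 59.85 and 50.73 FPKM. With no filter 4 of 14 were lower, where 3264 of 14703 genes were lower over all genes. The added ones were Thbs1, thrombospondin, at 0.587 and 0.0348 FPKM (about 31 and 2 reads) and F13a1, a factor XIII subunit, at 0.930 and 0 FPKM (about 32 and 0 reads). The counts of 2 and 2 of 12 stand beside 12.8% lower and 7.42% higher over all genes. F5 passed the 1 FPKM filter through WT alone. With at least 1 FPKM in both libraries, 1 of 11 was lower and 2 higher.

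In the cytoskeletal list all 16 genes reached 1 FPKM in a library, with 1 lower, 1 higher and 14 neither (median log2 ratio 0.156 over 15 genes). Over all genes 12.8% were lower and 7.42% higher. Tubb1, the beta tubulin of the platelet marginal band, was at 0.354 and 1.708 FPKM, 4.83-fold higher on about 4 and 21 reads (1.63 to 19.3). Myl9, a myosin light chain, was at 1.090 FPKM in WT (about 10 reads) and 0 in ESAM-null, at least 3.45-fold lower against a floor of 3 reads in that library. With the counting error of the WT reads included, the bound is 2.30-fold. Both differences rest on few reads, and Tubb1 passed the 1 FPKM filter through ESAM-null alone and Myl9 through WT alone. With at least 1 FPKM in both libraries, 0 of 13 were lower and 0 higher. Tmsb4x (3254 and 5084 FPKM) and Pfn1 (2549 and 3481 FPKM), which bind actin monomers in many cell types, were the highest of the list.

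Of the 16 signalling genes downstream of platelet receptors, 1 was lower, none higher and 15 neither (median log2 ratio −0.092). Over all genes 12.8% were lower and 7.42% higher. The lower gene was Prkcq, protein kinase C theta, at 28.91 and 13.24 FPKM (2.18-fold). Fermt3, the integrin activator kindlin-3, was at 165.4 and 154.0 FPKM, and Rap1b was at 124.8 and 117.9 FPKM. In the list of dense granule and thromboxane genes, all 17 reached 1 FPKM, with 4 lower, 1 higher and 12 neither (median log2 ratio −0.160). These counts stand beside the 12.8% lower and 7.42% higher of all genes. Lyst and Hps6 passed the 1 FPKM filter through WT alone. With at least 1 FPKM in both libraries, 2 of 15 were lower and 1 higher, beside 761 and 437 of 10674 over all genes. Tbxas1, thromboxane A synthase, was at 43.53 and 14.53 FPKM (3.00-fold lower, 2.60 to 3.46), whereas Ptgs1, the cyclooxygenase before it in the pathway, was at 55.30 and 47.69 FPKM. The other lower genes, Lyst (1.206 and 0.370 FPKM), Hps6 (2.556 and 0.901 FPKM) and Hps1 (26.60 and 11.86 FPKM), serve the making of lysosome-related organelles. Rab27b, which acts in dense granule secretion, was at 1.863 and 4.045 FPKM (2.17-fold higher, 1.53 to 3.13). Dtnbp1 was the highest of this list, at 123.0 and 158.4 FPKM.

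**Figure D4:**
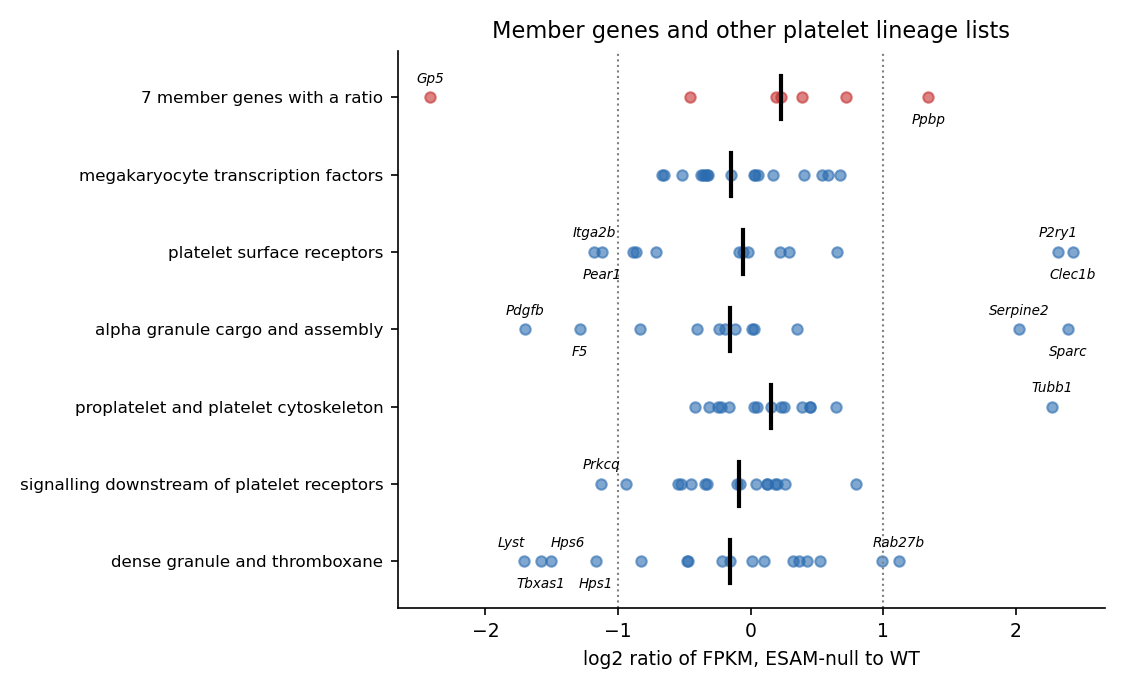
Log2 ratio of FPKM, ESAM-null to WT, of each gene in the member group and in 6 lists of the lineage (points), with the median of each list as a black bar and dotted lines at 2-fold. Named genes lie beyond 2-fold; medians lie between −0.160 and 0.225, and Myl9, at 0 in ESAM-null, is left out.

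Markers of other FL cells that a sort could hold were read as well. The 8 hepatoblast markers summed to 43.00 FPKM in WT against 37.06 FPKM in ESAM-null, with 1 and 5 at 0. Of these markers, Apoa1 (1.091 and 7.525 FPKM) and Afp (4.345 and 6.693 FPKM) were higher in ESAM-null. Trf (32.48 and 22.84 FPKM), Apoa2 (2.371 and 0 FPKM), Serpina1b (1.045 and 0 FPKM), Alb (1.040 and 0 FPKM) and Ttr (0.628 and 0 FPKM) were lower. The list thus did not move one way. The 8 macrophage markers summed to 28.31 and 30.59 FPKM, with 0 and 3 at 0. Here too the directions were mixed. Csf1r (2.168 and 3.587 FPKM), Cd68 (14.18 and 19.98 FPKM) and C1qc (3.383 and 5.068 FPKM) were higher in ESAM-null. C1qa (2.911 and 0 FPKM), C1qb (3.847 and 1.940 FPKM), Vcam1 (0.797 and 0 FPKM), Emr1 (0.698 and 0 FPKM) and Mrc1 (0.332 and 0.019 FPKM) were lower. The 8 granulocyte and monocyte markers summed to 259.0 and 263.4 FPKM, with 2 and 4 at 0, among them Elane and Ctsg, at 0 in both. Most of this sum was Prtn3 (186 and 193.4 FPKM) and Mpo (63.92 and 62.84 FPKM). Of the 5 that reached 1 FPKM, 1 was at least 2-fold lower and 0 higher, beside 12.8% and 7.42% of all genes. The lower one was Ms4a3 (1.318 and 0 FPKM, about 10 and 0 reads), which passed this filter through WT alone. The 7 erythroid markers in the files summed to 33.92 and 45.41 FPKM, with 0 and 1 at 0. Of the 6 that reached 1 FPKM, 3 were at least 2-fold lower and 1 higher, beside 12.8% and 7.42% of all genes. The 3 lower ones passed this filter through WT alone. The late erythroid genes Alas2 (8.079 and 0.282 FPKM), Slc4a1 (6.078 and 0.471 FPKM) and Epb4.2 (1.786 and 0 FPKM) were lower, while Klf1 (4.156 and 20.28 FPKM) was higher and Epor (10.92 and 21.40 FPKM) was within 2-fold. The 6 mast cell and basophil markers summed to 2.963 and 5.631 FPKM, with 4 at 0 in each library. Those above 0 were Cpa3 (1.107 and 3.835 FPKM, 3.47-fold higher, 1.85 to 6.97) and Hdc (1.856 and 1.796 FPKM). Over all genes with a mean of 1 to 3 FPKM, 19.7% were at least 2-fold higher. More of these low markers were at 0 in ESAM-null, as were Gp1bb among the members and, over all genes, 13039 genes above 0 in ESAM-null against 14305 in WT. Their part in the values of the 9 genes was not tested.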

How the data were processed

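Single-end RNA-seq of 75 bases, from cDNA of a SMART-Seq v4 kit, was done on 1 WT and 1 ESAM-null library. The authors deposited FPKM per gene, and Cuffnorm 2.2.1, TopHat2 2.0.13, SAMtools 0.1.19, Bowtie2 2.2.3 and the build mm10 are named in the submitters' processing notes. For the annotation, the scaling between libraries and reads with several matches, nothing is given in the sources used here. All 23284 listed genes were used, with groups taken from the labels.

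For each gene that reached 1 FPKM in a library, FPKM in ESAM-null were divided by those in WT without a pseudocount, and 2-fold was called. There was no test, because each genotype had 1 library. Approximate reads were recovered from the FPKM of 1 read and the RefSeq transcript length (found for 98% of genes), assuming fragments of 200 bases (SD 80). Within a tolerance of 0.05 read, 65.8% of 696 low values in WT and 74.45% of 411 in ESAM-null came out whole, so reads and the exact (Clopper-Pearson) 95% intervals of ratios and levels are approximate. A value of 0 was read against a floor of 3 reads. PCR copies were not told apart, so intervals cover counting error only.

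Gene positions and exons are those of GENCODE M21 on GRCm38, and promoters those of RefSeq. The 9 genes, the lists and the markers were chosen with earlier results of these data known. The genes named are all members, Esam, the neighbours of members, the 3 genes nearest to the highest member and, per list, up to 6 genes past 2-fold and the 2 highest. Gata1, Fli1, Fcer1g, P2ry12, Ptgs1, Thbs1, F13a1, Itgb3, Itga2 and the marker genes were added after their values were seen. 1 further gene is not reported here. Calculations used Python 3.11.15 with numpy 2.4.6, pandas 2.3.3 and scipy 1.17.1. Tested on simulated data for ESAM-null against WT (22817 genes), 100% of genes lowered and 100% of genes raised 4-fold were called. There, 54 unchanged genes were called lower and 51 higher, and 95.3% of 11570 intervals held the true ratio. The changed genes were drawn only from those with a mean of at least 5 FPKM, and reads varied by counting error alone. The simulation therefore does not cover calls at the means of Gp5 (1.715 FPKM) and Ppbp (2.573 FPKM). Nor does it cover differences between fetuses, sorts or cDNA amplifications. Alternatives were other filters, pseudocounts, scalings and folds, and leaving out each member.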

Additional observations from a re-analysis of the deposited data

How the results depend on the processing

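With 1 library per genotype, no setting gives a replicate check, and at low FPKM the number of reads limits every ratio. No paired analysis was possible because each genotype has 1 library and the labels carry no replicate numbers. Of 35 member log2 ratios under other pseudocounts and scalings, 31 stayed within the counting interval of the reported value and 4 did not, while no called value changed sign. Gp5 was at −1.335 with a pseudocount of 1. Without a correction for fragment length, Pf4 had about 101 and 132 reads and Gp9 449 and 572.

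The count of members at least 2-fold lower (1) was 2 with no filter, 0 with at least 5 FPKM in a library and 0 with at least 1 FPKM in both, a filter Gp5 does not pass. The count of members higher (1) was 0 with at least 5 FPKM, 0 with a pseudocount of 1, 2 at 1.5-fold and 0 at 3-fold. The members' median log2 ratio (0.225) was −0.053 after rescaling to a total of 1000000, 0.203 after centring on the median ratio and 0.034 after scaling to the upper quartile. The count of members whose counting interval leaves out 1 (4) was 2 after rescaling to a total of 1000000, chosen after seeing the data. The median lay between 0.207 and 0.307 when each member was left out. Over all genes, 1540 lower and 895 higher became 3264 and 1343 with no filter, 639 and 343 with at least 5 FPKM, 761 and 437 with at least 1 FPKM in both, 2632 and 2095 at 1.5-fold and 877 and 490 at 3-fold. A pseudocount of 1 left 568 higher. Rescaling to a total of 1000000 gave 2210 lower and 657 higher. Of 168 list counts and medians, 114 stayed within 1.5 times the reported count or, for medians, within the range from leaving out 1 gene, and 54 did not. The cause of these changes was not tested, beyond the fewer or more genes that a filter or fold admits.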
